A study of Mus musculus with 21 samples.

Results

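Voltage-gated calcium channels open when the membrane depolarizes and admit calcium through a pore that is formed by a single large alpha1 subunit. Mammals encode 10 such subunits, and the subunit decides the type of current. The L type is carried by Cacna1s, Cacna1c, Cacna1d and Cacna1f, the P/Q type by Cacna1a, the N type by Cacna1b, the R type by Cacna1e and the T type by Cacna1g, Cacna1h and Cacna1i. T-type channels open at voltages close to rest and favour burst firing, the P/Q and N types trigger transmitter release at presynaptic terminals, and neuronal L-type channels link calcium entry to gene transcription. The members were found by gene symbol, and all 10 were present among the 19399 genes shared by the 4 gene tables of the series.

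The study measured polyadenylated RNA in primary neurons from mouse cortex, cultured from newborn pups. Tau neurons carried the human tau transgene hTau P301S, driven by the prion promoter, and were seeded with pre-formed tau fibrils (PFF) at 3 µg/mL on day 7 in vitro and then held for 18 days. WT neurons were wildtype. The labels name seeding for the transgenic neurons alone, while the study's text also gives the time after seeding for both genotypes, so it is unsure whether WT cultures received fibrils, and if they did not, the transgene and the seeding cannot be told apart. Both received AraC (cytosine arabinoside), which kills dividing glia. Cultures were then exposed for 24 h to 10 µM AdipoRon, an agonist of the adiponectin receptors, or to DMSO, its vehicle. One protocol label gives the dose in millimolar, whereas the treatment label gives micromolar. There were 5 Tau cultures with AdipoRon, 5 Tau cultures with DMSO, 6 WT cultures with AdipoRon and 5 WT cultures with DMSO.

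Each table held 1 usable level per gene, the mean level in log2 CPM (counts scaled to library size) over the cultures of a pair of groups. These levels therefore describe 4 pools, namely all DMSO cultures (n = 10), all AdipoRon cultures (n = 11), all Tau cultures (n = 10) and all WT cultures (n = 11). The study's 4 comparisons, Tau against WT under DMSO, AdipoRon against DMSO in Tau, AdipoRon against DMSO in WT, and Tau against WT under AdipoRon, are covered here by the pool of cultures each one drew on. The AdipoRon and DMSO pools share no culture, and neither do the Tau and WT pools. By the study's reporting statement each animal gave material to both treatments, so the AdipoRon and DMSO pools may share animals, and the Tau and WT pools may hold an animal more than once. Thus 2 differences could be formed: AdipoRon minus DMSO, averaged over genotype, and Tau minus WT, averaged over treatment. The level of a single group, and any difference in the AdipoRon effect between genotypes, could not be obtained from pooled means. No spread between cultures and no read total per culture was given in the tables, so no difference below has an error or a test, and none is shown to exceed the replicate error. Tables were normalized separately. Both pairs of pools sum to the same 21 cultures. The sums differed across the 19399 genes by a log2 SD of 0.00486, with the pore subunits between -0.009 and -0.003. Opposite shifts of the 2 pools of a pair would largely cancel in such a sum, so it does not measure the error of either difference. The median level over all shared genes differed by 0.03 for AdipoRon minus DMSO and by -0.06 for Tau minus WT. A log2 difference of 0.32 was set as the size beyond which genes are counted below, as a description.

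The feature that separates T-type pores from the others can be read in their sequence. The selectivity filter is built from 1 acidic residue in each of the 4 repeats of the protein. In the third repeat, the codon at this position was glutamate in the 7 high-voltage-activated members (L, P/Q, N and R type) and aspartate in the 3 T-type members, and the same division held in the fourth repeat. The stretches of 27 bases are shown because they set the T type apart from the rest of the family. The summed level of the T type differed most between AdipoRon and DMSO. The codon does not mark the genes that differed, as Cacna1h (T type) differed by -0.01 and Cacna1c (L type) by 0.41 on the log2 scale. Each is coding sequence of the third repeat, read 5′ to 3′ on the gene's strand from GENCODE M39 transcripts, lies within a single exon, and is placed on GRCm39. Capitals mark the filter codon.
Cacna1s (L type, chr1:136025221-136025247, plus strand): acggtctccaccttcGAGggttggcct
Cacna1c (L type, chr6:118633076-118633102, minus strand): accgtctccaccttcGAAgggtggcca
Cacna1d (L type, chr14:29822656-29822682, minus strand): acagtctcaacttttGAGggctggccc
Cacna1f (L type, chrX:7490087-7490113, plus strand): actgtctctacctttGAAggctggcct
Cacna1a (P/Q type, chr8:85307952-85307978, plus strand): acagtgtccacaggaGAGggctggcca
Cacna1b (N type, chr2:24541095-24541121, minus strand): acagtgtccacgggaGAGgggtggccc
Cacna1e (R type, chr1:154320620-154320646, minus strand): acagtctctacagggGAAggatggcct
Cacna1g (T type, chr11:94317288-94317314, minus strand): gtgctggcctccaagGATggctgggtt
Cacna1h (T type, chr17:25602473-25602499, minus strand): gtgctgtcatccaagGATggctgggta
Cacna1i (T type, chr15:80260993-80261019, plus strand): gtcttggcctccaagGATggctgggtg

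Of the 10 pore subunits, 8 were expressed at mean levels between 5.86 and 7.72 log2 CPM, and 2, the muscle subunit Cacna1s and the retinal subunit Cacna1f, were far lower, at the 20.2nd and 8.39th percentile of all genes. To compare genes with one another, levels were divided by the length of the longest annotated transcript and are given as log2 CPM per kb. On this scale the presynaptic P/Q subunit Cacna1a (Entrez gene 12286) was highest, at 4.46, above 85.8% of the genes with a length. The R-type subunit Cacna1e (12290) followed at 3.48, then the T-type subunits Cacna1g (12291) at 3.34 and Cacna1i (239556) at 3.31, and the N-type subunit Cacna1b (12287) at 3.25. Lower still were the T-type subunit Cacna1h (58226) at 2.80 and the neuronal L-type subunits Cacna1d (12289) at 2.64 and Cacna1c (12288) at 2.49. The last places belonged to Cacna1s (12292) at -2.60 and Cacna1f (54652) at -3.74.

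The lead of Cacna1a over Cacna1e, 0.98 on the log2 CPM per kb scale, was present in all 4 pools. The Tau and WT pools hold the same 21 cultures as the DMSO and AdipoRon pools. The 4 pools are therefore not 4 separate observations. On the log2 CPM per kb scale, Cacna1e, Cacna1g, Cacna1i and Cacna1b could not be ordered. The gaps between neighbours were 0.15, 0.03 and 0.06, and each changed sign in at least 1 pool. The step from Cacna1b down to Cacna1h (0.44) and that from Cacna1h to Cacna1d (0.16) had the same sign in every pool, whereas the step from Cacna1d to Cacna1c (0.16) did not. A drop of 5.08 separated Cacna1c from Cacna1s. The order depends on the length used. With coding length in place of transcript length, the lead of Cacna1a over Cacna1e was 0.18. Cacna1e, at 4.65 log2 CPM per kb of coding length, then stood above Cacna1i (3.88), Cacna1b (3.74) and Cacna1g (3.62). Cacna1i and Cacna1b passed Cacna1g, Cacna1d passed Cacna1h, and Cacna1c passed both.

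**Figure D1:**
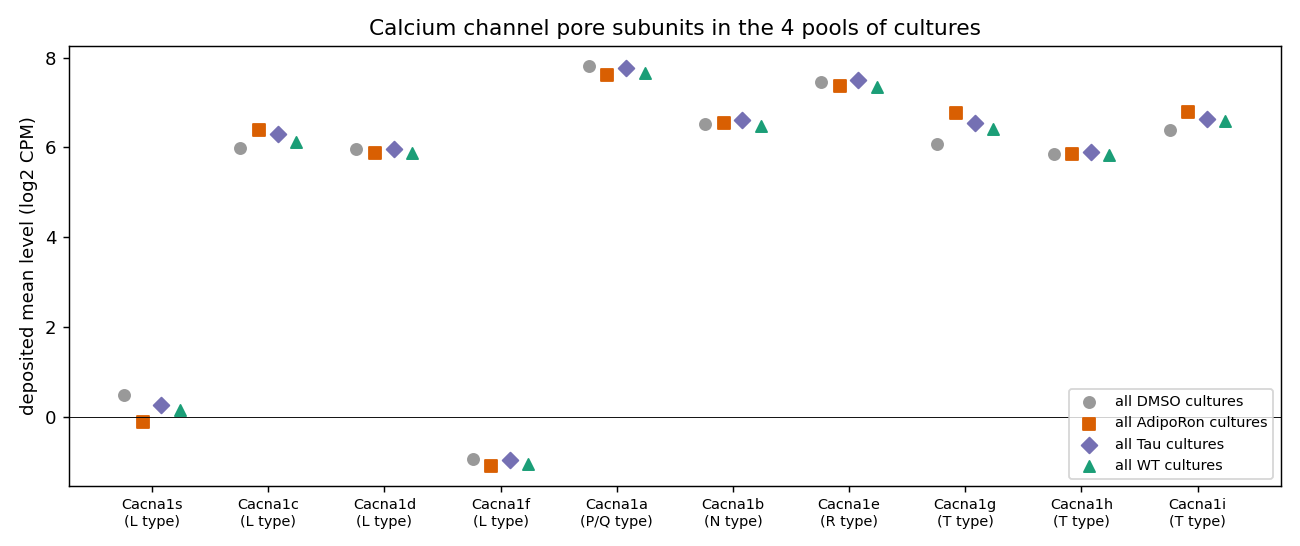
Deposited mean level (log2 CPM) of each pore subunit, ordered by channel type, with 1 point for each of the 4 pools of cultures and no error bars, since only means were available. Cacna1g, Cacna1i and Cacna1c lie higher in the AdipoRon pool than in the DMSO pool, and Cacna1s and Cacna1f lie far below the other 8 subunits in every pool.

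Between the AdipoRon and DMSO pools, the difference among members over 4 log2 CPM lay chiefly in 2 T-type subunits and 1 L-type subunit. Cacna1g, Cacna1i and Cacna1c were higher in the AdipoRon pool by more than 0.32 on the log2 scale. Cacna1s, at a far lower level, was lower by more than 0.32 (-0.58). These are 3 of 10 higher, where 10.9% of all 19399 genes were that much higher, and 1 of 10 lower, where 11.3% of all genes were that much lower. The median difference over the 10 members was -0.05, beside 0.03 over all genes, and 4 of 10 members lay above 0, beside 55.5% of all genes. Members thus lay on both sides of 0. Among genes over 4 log2 CPM, the 95th percentile of the difference was 0.39 (n = 9710). Cacna1g, Cacna1i and Cacna1c lay above it, and the other members over that level did not.

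Cacna1g, which encodes the T-type channel CaV3.1 of thalamic and cortical neurons, stood at 6.09 log2 CPM in the DMSO pool, 6.76 in the AdipoRon pool, 6.55 in the Tau pool and 6.42 in the WT pool. The AdipoRon pool was thus the highest and the DMSO pool the lowest. In linear terms the level was 67.9 CPM with DMSO and 109 CPM with AdipoRon, a 1.60-fold ratio, which lay at the 98.0th percentile of all genes. Cacna1i, the T-type channel CaV3.3, stood at 6.38 in the DMSO pool, 6.79 in the AdipoRon pool, 6.64 in the Tau pool and 6.59 in the WT pool. For Cacna1i the AdipoRon pool exceeded the DMSO pool 1.33-fold, at the 93.0th percentile. Its order of pools was that of Cacna1g and also that of Cacna1c. The Tau and WT pools each hold both treatments, so this order largely follows from the 2 differences. Cacna1h, the T-type channel CaV3.2, had nearly equal levels, with 5.86 in the DMSO pool, 5.85 in the AdipoRon pool, 5.89 in the Tau pool and 5.83 in the WT pool. The 3 T-type genes therefore differed from one another, with log2 differences of 0.68, 0.41 and -0.01.

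Among the L-type genes, Cacna1c, the CaV1.2 subunit of neurons and heart, stood at 5.98 log2 CPM in the DMSO pool, 6.39 in the AdipoRon pool, 6.31 in the Tau pool and 6.13 in the WT pool. The AdipoRon pool exceeded the DMSO pool 1.33-fold, the same ratio as for Cacna1i. Cacna1d, the CaV1.3 subunit that opens at more negative voltages than CaV1.2, stood at 5.96, 5.87, 5.97 and 5.87 in the DMSO, AdipoRon, Tau and WT pools. It thus differed by -0.09 where Cacna1c differed by 0.41, although both are the common L-type subunits of neurons.

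Cacna1s, the skeletal muscle subunit, stood at 0.47 log2 CPM in the DMSO pool, -0.11 in the AdipoRon pool, 0.26 in the Tau pool and 0.15 in the WT pool. The linear difference, AdipoRon minus DMSO, was -33.2%, but this is a step between 1.39 and 0.928 CPM. Cacna1f, the photoreceptor subunit, lay between 0.468 and 0.522 CPM in the pools and differed by -0.16 on the log2 scale. Of the skeletal muscle markers, Ckm and Myog were in none of the 4 tables and Acta1 summed to between 3.86 and 4.88 CPM.

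The subunits of the release machinery were level or slightly lower with AdipoRon. Cacna1a stood at 7.82 log2 CPM in the DMSO pool, 7.61 in the AdipoRon pool, 7.78 in the Tau pool and 7.67 in the WT pool. The linear difference, AdipoRon minus DMSO, was -13.4%, at the 17.2nd percentile of all genes and a log2 difference of -0.21, inside the bounds of 0.32. Cacna1b, the N-type subunit, stood at 6.52, 6.55, 6.62 and 6.48 in the DMSO, AdipoRon, Tau and WT pools, a difference of 0.03 between AdipoRon and DMSO. Cacna1e, the R-type subunit found in dendrites and spines as well as terminals, stood at 7.46, 7.38, 7.51 and 7.34, a difference of -0.08.

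**Figure D2:**
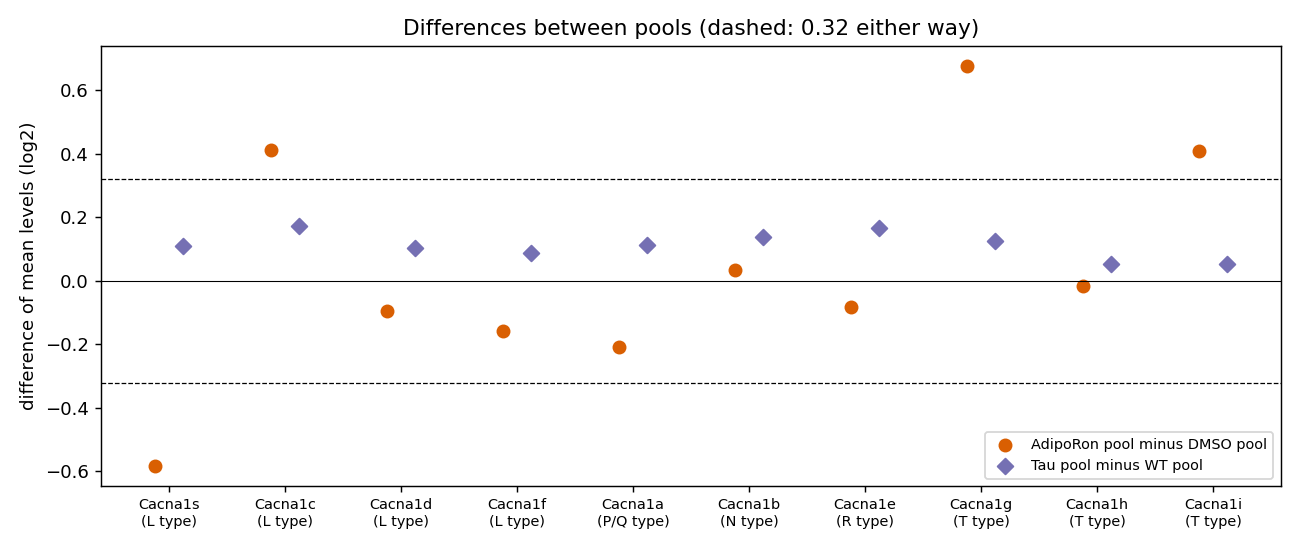
Difference of mean levels (log2) for each pore subunit, AdipoRon pool minus DMSO pool (circles) and Tau pool minus WT pool (diamonds), with dashed lines at 0.32 in either direction and no error bars. Cacna1g, Cacna1i and Cacna1c lie above the upper line and Cacna1s below the lower line for AdipoRon, and every diamond lies between 0.05 and 0.17.

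Grouped by type, the transcripts of the DMSO pool were divided almost equally between the P/Q and T types, with 29.8% and 29.4% of the summed CPM per kb. In the AdipoRon pool the T type held 36.5% and the P/Q type 24.3%. The L type held 14.5% with DMSO and 15.0% with AdipoRon, the N type 11.8% and 11.4%, and the R type 14.5% and 12.9%. In absolute terms, T-type transcripts summed to 209 CPM with DMSO and 277 CPM with AdipoRon, a ratio of 1.32, while the 7 high-voltage-activated genes summed to 621 and 599 CPM, a ratio of 0.965. The 10 genes together summed to 830 and 876 CPM. The shares, unlike these sums, depend on the length used. Per kb of coding length the R type held 21.7% with DMSO and 19.3% with AdipoRon and the T type 25.4% and 31.7%. The shares of the Tau and WT pools lay close to each other, with the T type at 32.8% and 33.6% and the P/Q type at 26.8% and 26.9%.

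**Figure D3:**
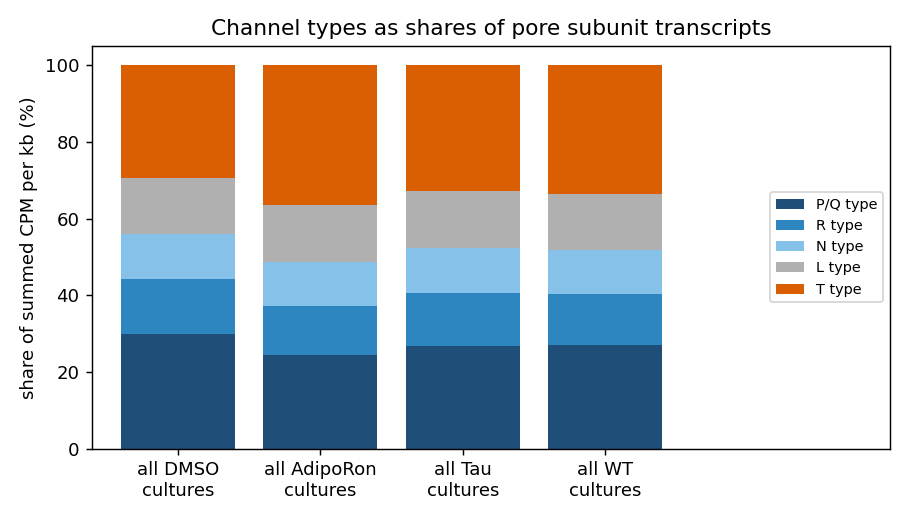
Share of the summed CPM per kb of the 10 pore subunits (%, stacked bars from 0) held by each channel type in each pool of cultures. The T type takes 29.4% in the DMSO pool and 36.5% in the AdipoRon pool, and the bars of the Tau and WT pools are nearly the same.

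Between the Tau and WT pools, each pore subunit was slightly higher in the Tau pool and none was past 0.32 on the log2 scale. The counts were 0 of 10 higher, where 8.09% of all genes were that much higher, and 0 of 10 lower, where 6.72% of all genes were that much lower. The log2 differences ran from 0.05 for Cacna1i and Cacna1h to 0.17 for Cacna1c and Cacna1e, that is from 3.69% to 12.8% in linear terms. Their median was 0.11, beside -0.001 over all genes. All 10 lay above 0, beside 49.7% of all genes, and they occupied the 65.9th to the 83.5th percentile. These all-gene values include genes of low level, whose differences spread more widely. Among genes over 4 log2 CPM, the 75th percentile was 0.04 and the 95th was 0.15 (n = 9710). The 8 members over that level lay above this 75th percentile, and Cacna1c and Cacna1e above the 95th. Among genes over 0 log2 CPM, 2.78% were higher by more than 0.32 and 6.87% lower. Cacna1a differed by 0.11, Cacna1b by 0.14 and Cacna1g by 0.13. The other T-type subunits, Cacna1h and Cacna1i, had the smallest differences of the 10. By summed CPM, the ratio of Tau to WT was lowest for the T type (1.057) and highest for the R type (1.123). Without an error for these values, whether a channel type stood apart was not tested. The 10 genes were read from the same libraries and do not count as 10 separate observations. Among the genes over 4 log2 CPM whose longest transcript exceeds 7 kb, as 8 of the 10 pore subunit transcripts do, the median difference was -0.001 (n = 1903).

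Marker levels of several cell types also differed between the pools. In bulk RNA, fewer cells of a type and less RNA per cell cannot be told apart. All 4 general neuron markers (Map2, Tubb3, Rbfox3 and Syp) were higher in the Tau pool, by 0.07 to 0.11 on the log2 scale, and summed to 2123 CPM in the Tau pool and 1990 CPM in the WT pool. All 5 excitatory neuron markers were also higher there, by 0.09 to 0.66, with sums of 709 and 565 CPM. Of the interneuron markers 2 of 5 were higher in the Tau pool, with sums of 1074 and 1096 CPM. All 5 microglia markers were lower in the Tau pool by more than 0.32, beside 6.72% of all genes, with sums of 147 and 299 CPM. The oligodendrocyte lineage markers were lower in 5 of 5, of which 3 were past 0.32, with sums of 545 and 802 CPM. Astrocyte markers summed to 3616 and 3632 CPM, so glial RNA was plentiful in spite of AraC. The part of these values in the Tau minus WT difference of the pore subunits was not tested.

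For AdipoRon the markers differed in another direction. The 4 neuron markers were lower in the AdipoRon pool, by 0.13 to 0.20, with sums of 2162 CPM under DMSO and 1937 CPM under AdipoRon. The astrocyte markers summed to 3462 and 3806 CPM, with 3 of 5 higher, and the interneuron markers to 1178 and 992 CPM, with 1 of 5 higher. Excitatory markers were higher in 1 of 5 and summed to 617 and 643 CPM. Microglia markers were higher in 2 of 5 and summed to 218 and 237 CPM, and oligodendrocyte lineage markers were higher in 2 of 5 and summed to 712 and 657 CPM. Vascular markers were sparse, with 2 of 3 in all tables, Cldn5 in none, and sums between 26.8 and 30.8 CPM over the pools. The differences of Cacna1g, Cacna1i and Cacna1c had the opposite sign to those of the neuron markers, those of Cacna1s, Cacna1f, Cacna1a, Cacna1d, Cacna1e and Cacna1h had the same sign, and Cacna1b lay slightly above 0. The part of these values in the AdipoRon differences was not tested.

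**Figure D4:**
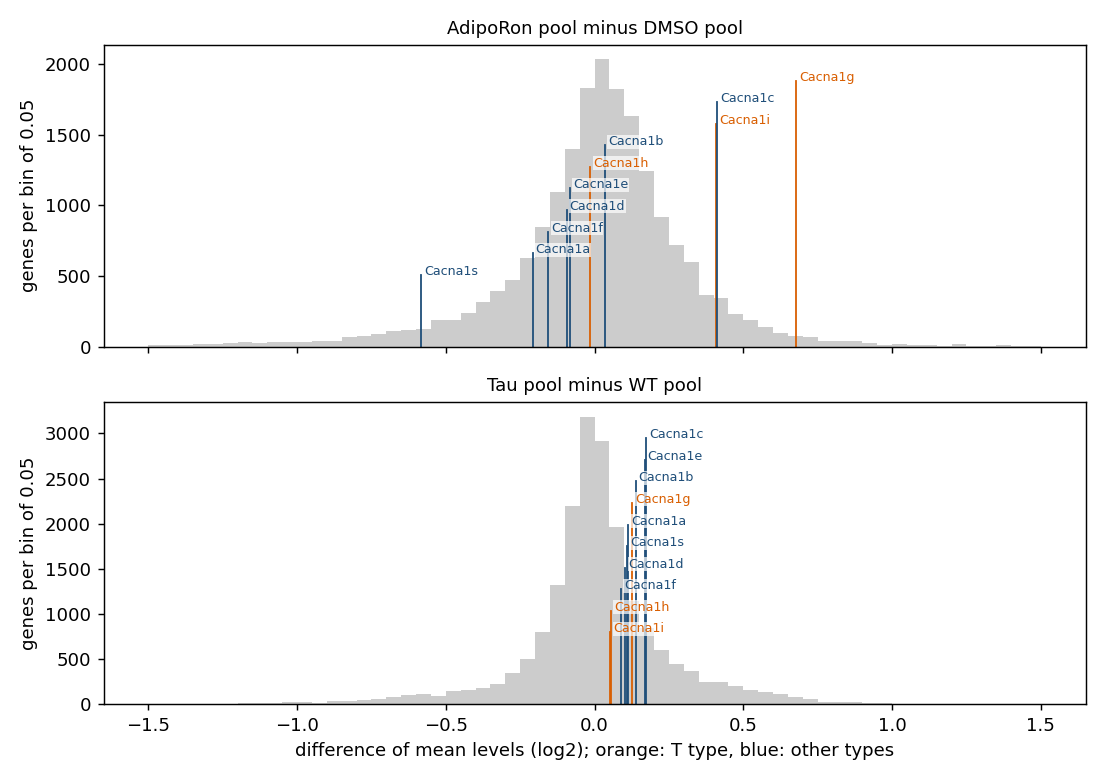
Number of genes per 0.05 bin of the log2 difference for the genes shared by all tables (grey), with a line for each pore subunit whose height has no meaning, for AdipoRon minus DMSO (top) and Tau minus WT (bottom). T-type subunits are orange and the others blue, and the axis spans the central range of differences. Cacna1g lies far to the right of the bulk for AdipoRon, whereas all 10 lines lie just right of 0 for Tau.

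A pore subunit reaches the membrane with partners. The auxiliary subunits are alpha2delta, which promotes surface delivery, beta, which binds the pore subunit inside the cell, and gamma, a family that also includes regulators of AMPA receptors (TARPs). None of the 15 auxiliary genes in all 4 tables was higher in the AdipoRon pool by more than 0.32 on the log2 scale. Of these genes, 5 were that much lower, beside 11.3% of all genes, and 10.9% of all genes were that much higher. The alpha2delta genes had a median difference of -0.18, with 2 of 4 lower by more than 0.32. The most abundant, Cacna2d3, at 4.15 log2 CPM per kb, stood at 6.51 log2 CPM with DMSO and 6.11 with AdipoRon. All 4 beta genes lay below 0, with a median of -0.16. Cacnb3, the most abundant at 5.35 log2 CPM per kb, stood at 7.22 log2 CPM with DMSO and 7.07 with AdipoRon, and Cacnb4 differed most, from 6.69 to 6.14. In the gamma family all 7 genes present lay below 0, with a median of -0.20 and 2 lower by more than 0.32. Cacng3 was at 5.82 with DMSO and 4.85 with AdipoRon. Cacng7 was the most abundant, at 6.02 log2 CPM per kb, and Cacng1 was in no table. Thus the auxiliary genes were mostly lower in the AdipoRon pool. Cacna1g, Cacna1i and Cacna1c were higher there, but the median over the 10 pore subunits was -0.05, with 4 above 0.

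In Tau neurons against WT, the beta genes resembled the pore subunits, with all 4 above 0 and a median of 0.14 on the log2 scale, Cacnb1 having the largest difference (0.17). The alpha2delta genes had a median of 0.09, with Cacna2d1, a target of gabapentin, at 7.22 log2 CPM in the Tau pool and 7.00 in the WT pool. The gamma family had the widest spread, from -0.66 for Cacng4 to 0.33 for Cacng5, each past 0.32.

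Presynaptic partners tether channels at the active zone or drive release. Of these, 5 of 8 genes were lower with AdipoRon by more than 0.32 on the log2 scale, beside 11.3% of all genes. Their median difference was -0.41, and 1 was that much higher, beside 10.9% of all genes. Stx1a, the plasma membrane SNARE protein that also binds P/Q and N-type channels, stood at 6.52 log2 CPM with DMSO and 5.53 with AdipoRon. Tspoap1, an adaptor that links RIM proteins to calcium channels, was the single gene past 0.32 in the other direction (0.42). Snap25 was the most abundant, at 7.68 log2 CPM per kb. For Tau minus WT all 8 lay above 0, the largest difference being that of Rimbp2 (0.29).

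Genes of calcium release and store-operated entry had a median AdipoRon difference of 0.17. Past 0.32, 4 of 11 were higher and 1 lower, beside 10.9% and 11.3% of all genes. Ryr2, a calcium release channel of the endoplasmic reticulum, differed by 0.59, Ryr1 was lower (2.77 log2 CPM with DMSO and 2.04 with AdipoRon), and the store sensor Stim1 was the most abundant at 4.43 log2 CPM per kb. The inositol trisphosphate receptor gene Itpr2 stood at 6.05 in the Tau pool and 6.65 in the WT pool. Itpr2 and Itpr3 were the 2 of 11 genes lower past 0.32 in the Tau pool, beside 6.72% of all genes. Pumps and exchangers, which remove calcium from the cytosol, had a median AdipoRon difference of -0.34. Past 0.32, 5 of 8 were lower with AdipoRon, beside 11.3% of all genes. Of these, Atp2b2, a plasma membrane pump, stood at 9.65 with DMSO and 9.15 with AdipoRon. Atp2a2, the pump that refills the endoplasmic reticulum, was the most abundant at 7.02 log2 CPM per kb, and Atp2b1 had the largest Tau minus WT difference (0.24).

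Potassium channels opened by calcium had the lowest median of the 8 lists, -0.61 for AdipoRon minus DMSO. Past 0.32, 3 of 4 were lower and none higher, beside 11.3% and 10.9% of all genes. Kcnn2, a small-conductance channel of the afterhyperpolarization, stood at 5.58 log2 CPM with DMSO and 4.92 with AdipoRon. Kcnma1, the large-conductance channel that is often placed beside calcium channels, differed by -0.57 and was the most abundant of the list at 3.92 log2 CPM per kb. Its Tau minus WT difference, 0.15, was the largest of the list. Calcium sensors and buffers had a median AdipoRon difference of 0.04. Past 0.32, 1 of 9 was lower, beside 11.3% of all genes. It was the calmodulin gene Calm2 (9.54 with DMSO and 9.07 with AdipoRon), the most abundant of the list at 9.02 log2 CPM per kb. The kinase gene Camk2a had the largest Tau minus WT difference of this list, with 10.41 log2 CPM in the Tau pool and 10.11 in the WT pool. Over the 8 lists, 5 of 55 genes were higher and 20 lower with AdipoRon by more than 0.32, beside 10.9% and 11.3% of all genes, and 1 was higher and 3 were lower in the Tau pool, beside 8.09% and 6.72% of all genes. The lists were chosen with earlier results of these data known, so these counts are descriptions.

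The pattern of Cacna1g, the member with the largest difference, was compared with that of all other genes over 0 log2 CPM. The likeness was the distance between the 4 pooled means after each gene's own mean had been removed, over 15776 genes. Nearest were Prkab2, a regulatory subunit of the energy-sensing kinase AMPK, at a distance of 0.007, Wfs1, which encodes the endoplasmic reticulum protein wolframin, at 0.012, and the transcription factor gene Tfap4, at 0.021. Prkab2 stood at 5.25 log2 CPM with DMSO and 5.93 with AdipoRon, a difference of 0.68. With 4 overlapping pools behind each pattern, many genes can resemble one another, and the likeness is a description alone.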

How the data were processed

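RNA of 21 cultures was sequenced by the authors. Per the methods and the labels, the authors trimmed the reads and had them aligned with STAR to mm10, quantified with RSEM and modelled with edgeR (other passages name GRCm39 and Rsubread, so the source of the counts is unsure); versions, filter and library scaling are not given in the sources used here. Each of the 4 deposited tables (19811 to 21378 genes) holds a mean log2 CPM over the cultures of a pair of groups. This log2 value alone was used, as deposited. The other columns hold the authors' comparisons (fold change, likelihood ratio, p-value, FDR) and were not used.

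Levels of the 19399 genes found in all 4 tables were subtracted between pools without shared cultures, and a gene was counted where the log2 difference passed that of the set fold (0.32). Pools held 10 or 11 cultures. A pooled mean weighs high cultures more than low ones on the log scale. The tables give no read total per culture. No test was possible, so the count test foreseen for values per culture was not run. The subtraction was run on simulated data with known differences. The simulated pools were averaged directly and not normalized separately, so the run does not cover the effect of separate normalization. Transcript length (longest transcript, GENCODE M39, matched by symbol) was found for 17363 genes (89.5%), including all 10 pore subunits. Sequences came from the transcript with the longest coding sequence. Named genes were all 10 pore subunits and, in each of 8 lists of 56 genes, those with the highest level and the largest differences; further list genes were named after their values were seen. The members and lists were chosen with earlier results of these data known. Alternatives were another length, each table alone, centring of the tables, and folds of 1.1 and 1.5. Python 3.11.15, pandas 2.3.3, numpy 2.4.6 and matplotlib 3.10.9 were used. The result of 1 marker list is not reported here.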

Additional observations from a re-analysis of the deposited data

How the results depend on the processing

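Pooled means without values per culture set the main limit, since neither the spread nor the reads behind a difference are in the tables. Leaving out a replicate was not run for the same reason. No paired analysis was possible because the tables hold means over cultures and no value per replicate number.

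At a fold of 1.5 the count higher with AdipoRon went from 3 to 1 (Cacna1g; 2.90% of all genes) and the count lower from 1 to 0 (4.88%). At a fold of 1.1 the count lower with AdipoRon was 3 (23.4% of all genes) and the count higher in the Tau pool was 3 (20.0%). With each table centred on its median over all shared genes or over those above 4 log2 CPM, the median member difference went from -0.049 to -0.080 or -0.073 for AdipoRon and from 0.11 to 0.17 or 0.15 for Tau minus WT, since the table medians themselves differ. The median level of the members, 3.03 log2 CPM per kb, was 3.54 with coding length, 2.89 in the DMSO table, 3.08 in the Tau table and 2.98 in the WT table. With coding length, an alternative added for the order and the type shares after seeing the data, the gaps Cacna1g minus Cacna1i (-0.26), Cacna1h minus Cacna1d (-0.18) and Cacna1d minus Cacna1c (-0.27) reversed. No member's AdipoRon or Tau difference changed sign on centring, and Cacna1b, at 0.03 for AdipoRon minus DMSO, came closest to 0 (0.004 and 0.01 after centring). All 13 other summary values kept their size or count.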

Other observations

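Among genes over 4 log2 CPM, the Tau minus WT difference was compared between long and short transcripts. Genes with a longest transcript between 3 and 7 kb were not summarized. Genes whose longest transcript exceeds 7 kb had a median difference of -0.001 (n = 1903), with 49.2% above 0, and those under 3 kb had a median of -0.04 (n = 1709), with 30.8% above 0. For AdipoRon minus DMSO the medians were 0.006 and 0.06. These are values over genes of the same pooled libraries, without a test.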
